A study of Homo sapiens with 4 samples.

Results

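CCR8, a chemokine receptor gene on chromosome 3p22, was examined together with 7 genes that lie near it on the chromosome: CX3CR1, SLC25A38, WDR48, GORASP1, TTC21A, CSRNP1 and XIRP1. These 8 genes stand in a table of 58302 genes. The 7 neighbours are not all the genes near CCR8, and they were listed with earlier results of these data known. CCR8 was selected on its read counts in this same comparison, in which it was among the genes with the largest increase. The values of CCR8 between the groups are therefore given as a description without a test. The question was whether the higher CCR8 signal belonged to CCR8 alone or was shared by the genes around it. All samples were NCI-H838 cells, an established human lung cancer line, in the MIB1-iKO form, in which an integrated piggyBac construct carries a guide against MIB1, a puromycin resistance gene and Cas9 under a doxycycline-responsive promoter. MIB1 encodes an E3 ubiquitin ligase. The methods of the study describe the MIB1-iKO cells as single-cell clones, so the values describe clonal cells and not the parental population. The 2 no dox samples and the 2 dox samples (0.5 μg/mL doxycycline, written dox) were collected at day 3 and carry the same construct, and cells without the MIB1 guide that received dox were not analysed here, so an effect of dox itself and loss of MIB1 cannot be told apart. Poly(A) or low-input RNA sequencing libraries were made, and the source does not say which for these samples. The labels number the replicates without saying that they were separate cultures, so p-values measure the spread between these samples, which may be technical.

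The libraries held between 15943025 and 24398411 counted reads, with the lower totals in both dox libraries. MIB1 itself had 598 and 588 reads under no dox against 90 and 59 under dox, and its RPKM (reads corrected for gene length and for the depth of the library) averaged 2.73 ± 0.104 against 0.478 ± 0.196 (SD, n = 2 each), a log2 fold change of -2.58 (limma, SE 0.23, adjusted p = 0.000375). Of the 16181 genes with enough reads to be tested, 6 were called, which is 0.0371% of them. Calls needed both a 2-fold change and an adjusted p no higher than 0.05. An unadjusted p under 0.05 was found for 9.28% of the genes tested, and for 36.1% the CPM (reads scaled to the library total) of the 2 groups did not overlap.

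Chemokine receptors are G protein-coupled receptors that bind small secreted chemokines and steer the migration of cells, chiefly leukocytes. CCR8 binds CCL1 and is best known from regulatory T cells and other T cells, and CX3CR1, the receptor of the membrane-bound chemokine CX3CL1, is known from monocytes, microglia and cytotoxic lymphocytes. In bulk RNA a change in the share of cells that express a gene and a change of RNA per cell cannot be told apart. The other members are not known as genes of chemokine signaling. WDR48 is a cofactor of deubiquitinating enzymes, SLC25A38 is a mitochondrial glycine carrier needed for heme synthesis, GORASP1 is a stacking protein of the Golgi, TTC21A is a protein of intraflagellar transport in cilia, CSRNP1 is a nuclear protein with a cysteine- and serine-rich region, and XIRP1 is an actin-binding protein of striated muscle.

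Promoter windows of 300 bases (250 before and 50 after an annotated start) were taken from RefSeq on GRCh38.p14, where 7 of the 8 members had an entry and CCR8 had none. The 11 windows of these members differ in their content of the dinucleotide CG, whose density sets apart the promoters of broadly expressed genes from many tissue-restricted ones. Windows of SLC25A38 and GORASP1, which were expressed in every library, and of CX3CR1 and XIRP1, which had almost no reads, are shown 5′ to 3′ on the strand of the gene, with each CG in capitals. They lie at chr3:39383120-39383419 (plus strand), chr3:39107578-39107877 (minus), chr3:39281686-39281985 (minus) and chr3:39192546-39192845 (minus).
SLC25A38: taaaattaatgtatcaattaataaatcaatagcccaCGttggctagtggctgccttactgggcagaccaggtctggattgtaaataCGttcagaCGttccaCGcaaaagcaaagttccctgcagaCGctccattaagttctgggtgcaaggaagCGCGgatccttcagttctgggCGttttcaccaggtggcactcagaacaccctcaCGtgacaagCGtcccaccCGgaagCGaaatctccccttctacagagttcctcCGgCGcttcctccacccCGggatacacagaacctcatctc
GORASP1: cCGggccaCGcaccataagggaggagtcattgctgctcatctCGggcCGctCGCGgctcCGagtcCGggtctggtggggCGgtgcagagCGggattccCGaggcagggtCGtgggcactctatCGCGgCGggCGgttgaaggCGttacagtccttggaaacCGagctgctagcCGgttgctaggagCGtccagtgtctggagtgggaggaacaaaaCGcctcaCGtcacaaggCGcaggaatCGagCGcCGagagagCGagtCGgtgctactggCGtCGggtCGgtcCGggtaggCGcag
CX3CR1: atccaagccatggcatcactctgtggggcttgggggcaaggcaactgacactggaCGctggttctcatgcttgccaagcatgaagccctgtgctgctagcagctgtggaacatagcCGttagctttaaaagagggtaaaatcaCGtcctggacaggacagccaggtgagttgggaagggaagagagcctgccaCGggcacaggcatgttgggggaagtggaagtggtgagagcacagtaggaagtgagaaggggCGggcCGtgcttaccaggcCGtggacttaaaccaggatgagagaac
XIRP1: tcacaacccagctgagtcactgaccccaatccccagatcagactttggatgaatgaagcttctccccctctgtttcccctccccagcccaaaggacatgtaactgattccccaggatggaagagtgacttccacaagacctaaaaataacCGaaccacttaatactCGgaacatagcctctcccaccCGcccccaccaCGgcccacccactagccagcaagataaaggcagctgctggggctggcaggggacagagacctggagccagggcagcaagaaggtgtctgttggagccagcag
The SLC25A38 window holds 15 CG dinucleotides and the GORASP1 window 33, whereas the windows shown of CX3CR1 and XIRP1 hold 7 and 4. The median over all 35116 RefSeq promoter windows was 14. The other 2 windows of CX3CR1 hold 1 and 3. Among the remaining members, TTC21A has 35, WDR48 has 11 and 31 in its 2 windows, and CSRNP1 has 41 and 3. The windows of GORASP1 and TTC21A lie on opposite strands and share 152 bases. The palindrome GGCGCC, a motif known to be bound by SMAD proteins of the BMP branch, was searched as these letters, which read the same on both strands. It occurs in 3 of the 11 windows of the members (WDR48, TTC21A and CSRNP1) and in 19.2% of all RefSeq promoter windows. A match of letters is a description and not a bound site.

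CCR8 (ENSG00000179934) spans 39329709 to 39333680 on the plus strand of chromosome 3 (GRCh38), with exons of 121 and 1363 bases. Its counts were 26 and 37 reads under no dox against 95 and 106 under dox. Scaled to the library totals these are 1.07 CPM (95% exact Poisson interval 0.696 to 1.56) and 1.74 CPM (1.23 to 2.40) without dox, and 5.96 CPM (4.82 to 7.28) and 6.22 CPM (5.09 to 7.52) with dox. Both dox libraries lay above both no dox libraries, as in 36.1% of the genes tested in either direction, and their counting intervals, which cover counting error only, did not reach those of the no dox libraries. The deposited RPKM was 0.840 and 1.28 without dox (mean 1.06 ± 0.313, SD, n = 2) and 4.73 and 4.44 with dox (mean 4.58 ± 0.207, SD, n = 2), a ratio of 4.32. The log2 fold change of the fit over all genes was 2.11 ± 0.30 (SE), or 4.31-fold with a 95% confidence interval of 2.75 to 6.76. Because CCR8 was chosen for its increase in this comparison, the estimate may be too large, and the interval does not allow for that choice. The log2 fold change of CCR8 ranked at place 6 from the top among those of the 16181 genes. In level, CCR8 stood at percentiles 19.8 and 26.7 of the RPKM of the tested genes without dox and at percentiles 52.7 and 51.4 with dox, near the median level, which lay between 4.12 and 4.22 RPKM in the 4 libraries.

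By exact match, the exons of CCR8 are unique in sequence. All 1386 windows of 50 bases, the read length, within the annotated exons of CCR8 occur at 1 place in the genome. Places that match with a mismatch were not searched for. A gene of a long noncoding RNA, ENSG00000287780, lies on the opposite strand across the whole of CCR8, but shares 0 exon bases with it and is not among the counted genes. The length of the CCR8 gene model implied by counts and RPKM is 1318 bases, beside 1484 annotated exon bases.

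**Figure D1:**
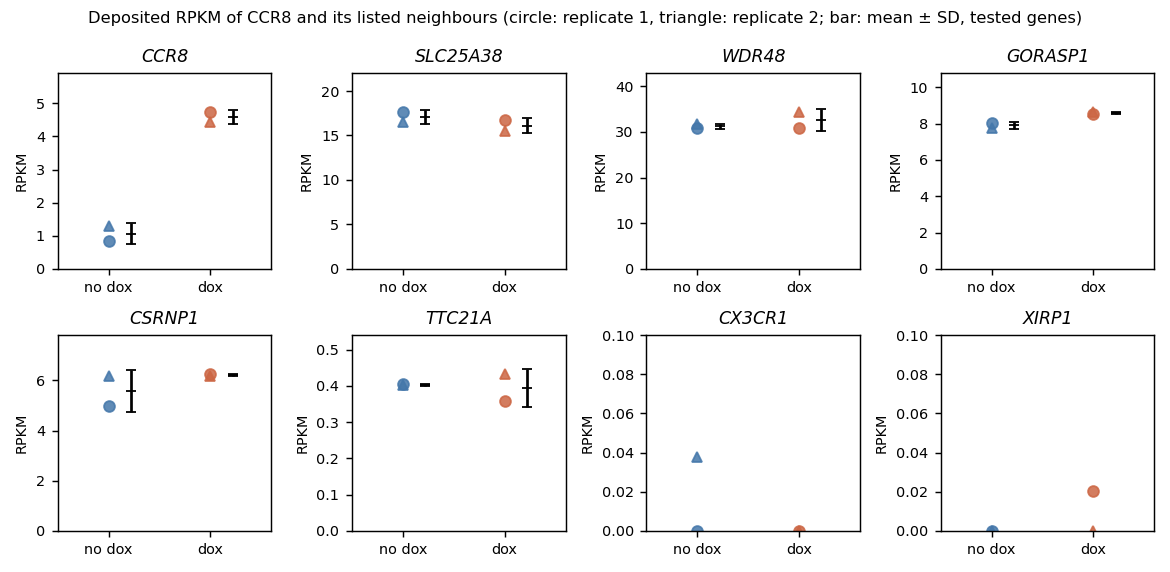
Deposited RPKM (y axis, from 0) of CCR8 and its 7 listed neighbours in the no dox (blue) and dox (orange) groups, 1 panel a gene. Circles are replicate 1 and triangles replicate 2, and black bars give the mean and SD of the 2 libraries for the genes tested. CCR8 stood at 0.840 and 1.28 without dox and at 4.73 and 4.44 with dox, and the other panels show no separation of that size.

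None of the neighbours was called. Of the 7, the 5 with enough reads for the test were SLC25A38, WDR48, GORASP1, TTC21A and CSRNP1. Limma called 0 of these 5, beside 0.0371% of all genes tested, and 0 had an unadjusted p under 0.05, beside 9.28%. The tests of edgeR and DESeq2 also called 0, DESeq2 giving no adjusted p for TTC21A. At these shares a count of 0 is usual for so few genes, and the same holds for the gene lists below. Among the 5 neighbours, log2 fold changes were above 0 for 3 and below 0 for 2, with a median of 0.08, beside -0.00042 over all genes tested. CPM did not overlap between groups for 2 of the 5, beside the 36.1% of all genes. The highest upper bound of their 95% confidence intervals was 0.67 on the log2 scale.

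SLC25A38 (39383370 to 39397351, plus strand) starts 53.7 kb past the CCR8 start and is the nearest tested neighbour. It had 878 and 769 reads under no dox against 540 and 598 under dox. In RPKM these were 17.6 and 16.5 without dox and 16.7 and 15.5 with dox, with overlapping groups, although CPM was lower in both dox libraries. Its log2 fold change was -0.05 (limma, SE 0.13, adjusted p = 0.936), with a 95% interval of -0.33 to 0.23. The genes of the heme pathway that the glycine carrier feeds were measured alongside: 8 of 9 were tested, 0 were called and 0 had an unadjusted p under 0.05, 3 being above and 5 below 0 with a median log2 fold change of -0.01. UROD, uroporphyrinogen decarboxylase, had the highest level, at 164 ± 6.42 (no dox) and 163 ± 23.2 (dox) RPKM as mean ± SD of 2 libraries each.

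On the other side of CCR8 the nearest member is its fellow receptor gene CX3CR1 (39263495 to 39281735, minus strand), whose start lies at -48.0 kb, with upstream distances given as negative. It had 0 and 3 reads under no dox against 0 and 0 under dox. XIRP1 (39183210 to 39192596, minus strand), whose start lies at -137.1 kb, had 0 and 0 reads under no dox against 2 and 0 under dox. Neither gene was tested. A count of 0 allows up to 3 expected reads, which correspond to between 0.123 and 0.188 CPM in these libraries. The 3 reads of CX3CR1 in no dox replicate 2 had a 95% exact Poisson interval of 0.029 to 0.413 CPM. For the 2 reads of XIRP1 in dox replicate 1 the interval was 0.015 to 0.453 CPM. Each gene thus had reads in a single library, and a difference between groups within these limits could not be seen.

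CSRNP1 (39141855 to 39154562, minus strand), with its start at -175.1 kb, had 377 and 435 reads under no dox against 306 and 360 under dox. Its RPKM read 4.99 and 6.18 in no dox and 6.25 and 6.18 in dox, the lowest value being that of no dox replicate 1 and the other 3 lying close together. The log2 fold change was 0.18 (limma, SE 0.16, adjusted p = 0.778), with a 95% interval of -0.16 to 0.52. CSRNP1 shares 220 exon bases, 6.81% of its own, with the noncoding gene ENSG00000283849 on the opposite strand, and another, ENSG00000284669, overlaps it without shared exon bases. Of its paralogs and those of XIRP1, CSRNP2 was the only one tested, at 6.61 ± 0.219 (no dox) and 6.22 ± 0.538 (dox) RPKM as mean ± SD of 2 libraries each, and was not called. CSRNP3 had at most 1 read in a library and XIRP2 had 0 in all.

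WDR48, GORASP1 and TTC21A lie in a row, with starts at -277.7, -221.3 and -222.0 kb, and GORASP1 overlaps both of the others. WDR48 (39052013 to 39096671, plus strand) had 2682 and 2567 reads under no dox against 1747 and 2304 under dox. Its RPKM read 30.8 and 31.6 in no dox and 30.9 and 34.3 in dox, so the groups overlapped. The log2 fold change of WDR48 was 0.08 (limma, SE 0.12, adjusted p = 0.879), with a 95% interval of -0.17 to 0.34, and it was -0.03 without dox replicate 2. The deubiquitinases that WDR48 activates, USP1, USP12 and USP46, were all tested, and 0 were called and 0 had an unadjusted p under 0.05, with a median log2 fold change of -0.02. USP1 had the highest level, at 9.85 ± 0.407 (no dox) and 9.29 ± 0.517 (dox) RPKM as mean ± SD of 2 libraries each.

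GORASP1 (39095222 to 39108369, minus strand) had 702 and 634 reads under no dox against 485 and 582 under dox. Its RPKM read 8.03 and 7.78 in no dox and 8.55 and 8.63 in dox, so both dox libraries were higher, in CPM too. That separation corresponded to a log2 fold change of 0.15 (limma, SE 0.13, adjusted p = 0.766), with a 95% interval of -0.13 to 0.44. Its Golgi partners GOLGA2 and GORASP2 were both tested, with 0 called, 0 at an unadjusted p under 0.05 and a median log2 fold change of 0.10. GORASP2, its paralog, stood at 57.0 ± 0.677 (no dox) and 60.1 ± 1.38 (dox) RPKM as mean ± SD of 2 libraries each.

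TTC21A (39107680 to 39138903, plus strand) was the lowest of the tested members in RPKM, with 40 and 37 reads under no dox against 23 and 33 under dox. Its RPKM read 0.404 and 0.401 in no dox and 0.358 and 0.432 in dox, the dox libraries lying on either side of the no dox ones. The log2 fold change of -0.07 (limma, SE 0.34, adjusted p = 0.972) had the widest interval of the members, -0.80 to 0.67, and was 0.09 without dox replicate 1. Of 5 genes of the IFT-A complex, among them the paralog TTC21B, all were tested, and 0 were called and 0 had an unadjusted p under 0.05, with a median log2 fold change of -0.02. TTC21B had the highest level of these, at 6.45 ± 0.939 (no dox) and 6.25 ± 1.63 (dox) RPKM as mean ± SD of 2 libraries each.

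The exons of these 3 genes overlap on opposite strands. WDR48 and GORASP1 share 1450 annotated exon bases (19.4% of those of WDR48 and 16.2% of those of GORASP1), and GORASP1 and TTC21A share 185 (2.07% and 2.40%). WDR48 also shares 61 exon bases with SCN11A, and TTC21A shares 3 with MIR6822. The gene models implied by counts and RPKM are shorter than the annotated exons. They are 3707 bases for WDR48 (annotated 7473), 3722 for GORASP1 (8939) and 4212 for TTC21A (7701). How much the counted models overlap is not known. Counting is not stated to have used strand, so reads of shared stretches cannot be assigned to one gene of a pair. The values of the 3 genes are uncertain to an extent that cannot be given. All windows of 50 annotated exonic bases of WDR48, GORASP1, TTC21A and CSRNP1 occur at 1 place in the genome by exact match, and 95.9% of those of SLC25A38 do.

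In order of RPKM the members ran from WDR48 through SLC25A38, GORASP1, CSRNP1, CCR8 and TTC21A to CX3CR1 and XIRP1, and the order of the 6 tested members was the same in both groups, with CX3CR1 and XIRP1 at or near 0 below them. The values of adjoining genes among these 6 did not overlap between genes in either group. CCR8 stood nearer to TTC21A without dox and nearer to CSRNP1 with dox. CSRNP1 was at 6.21 ± 0.0475 RPKM (SD, n = 2) with dox beside 4.58 ± 0.207 RPKM (SD, n = 2) for CCR8.

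A ratio taken within each library does not depend on the scaling between libraries. Per 1000 reads of the 5 tested neighbours together, CCR8 had 5.56 and 8.33 reads without dox and 30.6 and 27.3 reads with dox. The group means were 6.94 ± 1.96 and 29.0 ± 2.33 (SD, n = 2 each), a ratio of 4.18. The neighbours themselves held 192 and 209 CPM in sum without dox and 195 and 227 CPM with dox, with overlapping groups. Most of these reads were from WDR48, the farthest member. It had 2682 of 4679 and 2567 of 4442 without dox, and 1747 of 3101 and 2304 of 3877 with dox. The sum therefore mostly follows that gene. The log2 fold change of CCR8 exceeded the median of the neighbours by 2.02. The ratio and this difference use the CCR8 reads on which the gene was chosen, so they are a description without a test.

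The wider surroundings were examined in the same way. In the span from 1 Mb before to 1 Mb after CCR8 the annotation lists 50 genes that overlap it in whole or in part, of which 42 were in the count table and 14 of these had 0 reads in all libraries. Beside the members, 9 of these genes were tested. Limma called 0 of the 9, as did edgeR and DESeq2, beside 0.0371% of all genes tested. Log2 fold changes were above 0 for 4 and below 0 for 5, with a median of -0.02 and a lowest adjusted p of 0.527 from limma. An unadjusted p under 0.05 was found for 1 of the 9, beside 9.28% of all genes tested. That 1 gene was EIF1B-AS1, an antisense RNA gene 980.0 kb away, with 119 and 104 reads under no dox against 126 and 107 under dox. Its log2 fold change was 0.50 (limma, SE 0.23, adjusted p = 0.527). The highest of the other 8 was RPSA, which encodes a protein of the small ribosomal subunit and starts 77.0 kb from CCR8, at 0.25 (adjusted p = 0.605), and the lowest was the small nucleolar RNA gene SNORA62 inside it, at -0.38 (adjusted p = 0.834). RPSA has many processed copies. Of the 50-base windows in its 7689 annotated exon bases, 89.1% occur at 1 place, and the most repeated occurs at 1139. The gene model implied by counts and RPKM is only 1186 bases, and the share within that model was not computed. ACVR2B, a type II receptor for activins and some BMPs, starts at -875.8 kb and had a log2 fold change of -0.17 (adjusted p = 0.899). The others, XYLB, EXOG, NFU1P1, EIF1B and ENTPD3-AS1, lay between -0.34 and 0.18.

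**Figure D2:**
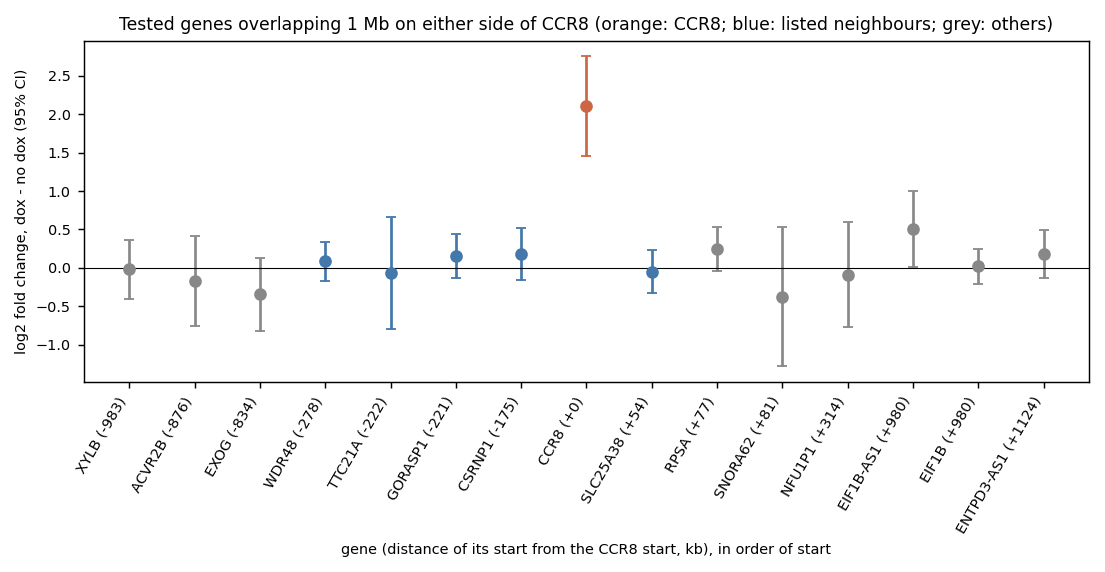
Log2 fold change, dox minus no dox, with its 95% confidence interval (y axis) for the 15 tested genes that overlap the span of 1 Mb on either side of CCR8, in order of their starts along the chromosome with the distance of each start from that of CCR8 in kb (x axis). CCR8 (orange) was at 2.11, with an interval from 1.46 to 2.76 that does not allow for its selection on these data. The members beside it (blue) and the other genes (grey) lay between -0.38 and 0.50.

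**Figure D3:**
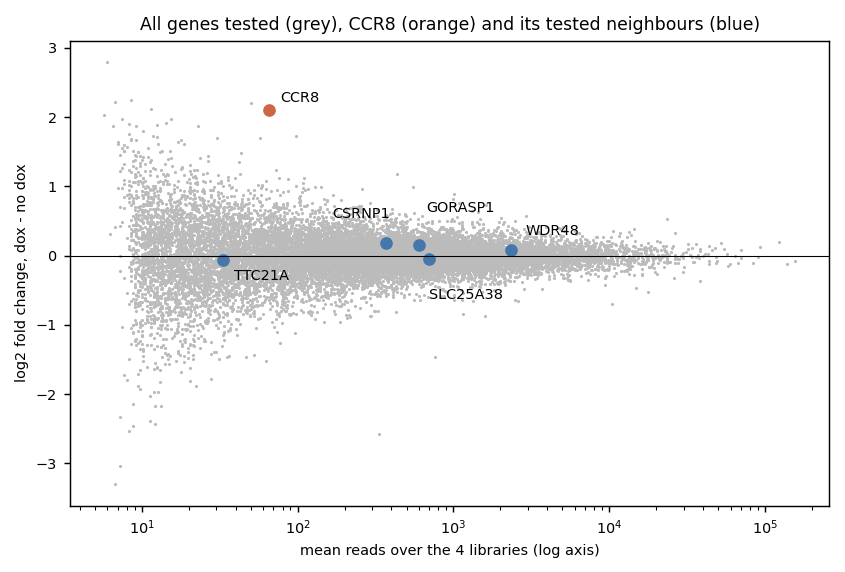
Log2 fold change, dox minus no dox (y axis), against the mean reads of the 4 libraries (x axis, log scale) for the 16181 genes tested (grey), CCR8 (orange) and its 5 tested neighbours (blue). The neighbours lay between -0.07 and 0.18, within the cloud of genes of like read number, and CCR8 was at 2.11, at its upper edge.

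A processed pseudogene that had too few reads for the test, HNRNPA1P21, starts 1298 bases past the end of CCR8 on the same strand, and is named here after its values were seen. It had 4 and 1 reads under no dox against 9 and 8 under dox. Over the groups this came to 5 and 17 reads, or 0.110 and 0.515 CPM, equal to 7.94% of the CCR8 reads without dox and 8.46% with dox. Its sequence is close to that of other copies of HNRNPA1, and 91.7% of its exonic 50-base windows occur at 1 place by exact match. Copies that match with a mismatch were not searched for, so the origin of its reads is uncertain. Further downstream, the pseudogene CENPPP1 had 0 reads in all libraries, and EEF1A1P24, 24864 bases past the end, had 9 and 16 reads under no dox against 6 and 4 under dox. These counts are given without a test.

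Among the other chemokine receptor genes CCR8 was one of few with reads. Of 21 further receptor genes, 14 had 0 reads in all libraries and 19 had at most 5 in any library, CXCR4 and CCR4 among the genes listed at 0. A value of 0 in this table is not proof of absence, since EIF4A1, a translation initiation factor used by every cell, is also listed at 0 in all libraries (named after its values were seen). CCR8, CX3CR1 and XIRP1 each have reads in at least 1 library and are therefore counted genes. Of the 21 receptor genes, the 2 that were tested were CCR10 and ACKR3. Limma called 0 of them, and 1 had an unadjusted p under 0.05, beside 9.28% of all genes tested. CCR10, a receptor of skin and mucosal chemokines, had 373 and 373 reads under no dox against 249 and 394 under dox, a log2 fold change of 0.23 (limma, SE 0.17, adjusted p = 0.723). ACKR3, an atypical receptor that removes CXCL12, had 614 and 478 reads under no dox against 231 and 322 under dox. Its groups did not overlap in CPM, as for 36.1% of all genes tested. Its RPKM was 10.9 ± 1.38 (no dox) and 7.47 ± 0.837 (dox) as mean ± SD of 2 libraries each, a log2 fold change of -0.52 (limma, SE 0.16, adjusted p = 0.333) with an unadjusted p under 0.05.

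**Figure D4:**
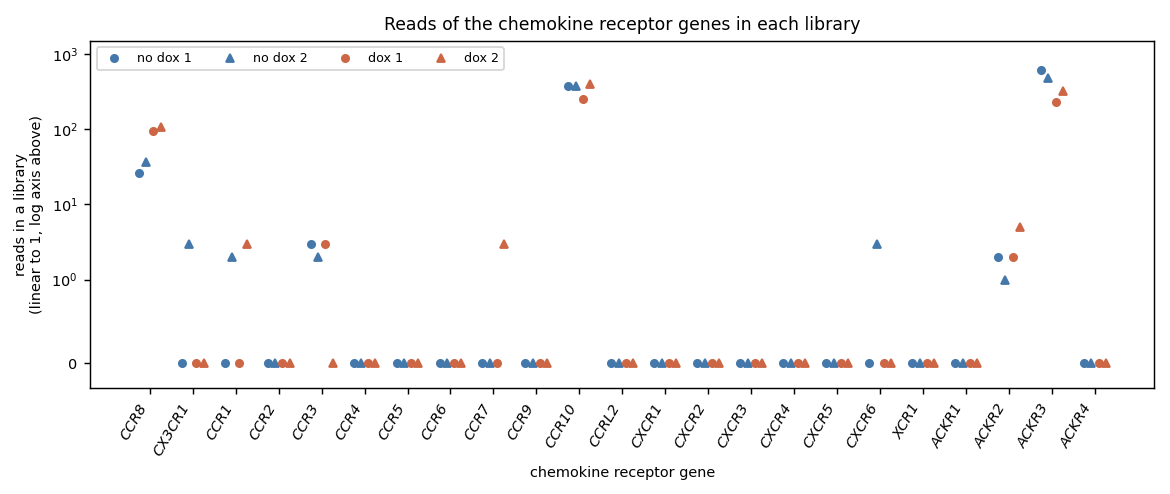
Reads per library (y axis, linear to 1 and log above) of CCR8, CX3CR1 and 21 further chemokine receptor genes (x axis) in the no dox (blue) and dox (orange) libraries, replicate 1 as circles and replicate 2 as triangles. Only CCR8, CCR10 and ACKR3 exceeded 5 reads in a library, and CCR8 was at 26 and 37 reads without dox and at 95 and 106 with it.

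The ligands of CCR8 and CX3CR1 in the list examined, which is not a full set, had at most 2 reads in a library. CCL1, CCL16 and CCL18 had 0 reads in all libraries, CCL8 had at most 2 reads and CX3CL1 at most 1. ADAM10 and ADAM17, the proteases that release CX3CL1 from the membrane, were tested and not called, with log2 fold changes of -0.05 (adjusted p = 0.939) and 0.13 (adjusted p = 0.789). Of 14 genes of signaling and desensitization below chemokine receptors, 13 were tested, 0 were called and 0 had an unadjusted p under 0.05, with 7 above and 6 below 0 and a median log2 fold change of 0.05. The G protein subunit gene GNB1 had the highest RPKM of these, 75.1 ± 4.56 (no dox) and 69.6 ± 8.44 (dox) as mean ± SD of 2 libraries each. PIK3CG, the catalytic subunit of a phosphoinositide kinase of leukocytes, had 0 reads in all libraries.

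Markers of blood cells, in which CCR8 is usually found, were mostly at or near 0 in both groups, with CD14, CD8A and CD4 as exceptions. Of 15 immune markers, 9 had 0 reads in all libraries, including PTPRC, CD3D, FOXP3, IL2RA and CTLA4, and 12 had at most 5 reads in any library. Limma called 0 of the 3 that were tested, and 1 had an unadjusted p under 0.05, beside 9.28% of all genes tested. CD14 stood at 4.21 ± 0.0457 (no dox) and 4.38 ± 0.108 (dox) RPKM as mean ± SD of 2 libraries each, and CD4 had a log2 fold change of 0.57 (adjusted p = 0.769). CD8A had 24 and 29 reads under no dox against 8 and 7 under dox, giving -1.38 on the log2 scale, with an unadjusted p under 0.05 and an adjusted p of 0.389 from limma. The summed RPKM of the list was 4.68 and 4.91 without dox and 4.88 and 4.88 with dox. The summed RPKM of 7 epithelial markers, which are not particular to lung, read 117 and 125 in no dox and 104 and 108 in dox. Of these markers, 6 were tested and 0 called, with 2 at an unadjusted p under 0.05, beside 9.28% of all genes tested. The 2 were the keratin genes KRT8, at -0.34 on the log2 scale, and KRT18, at -0.41, with adjusted p values of 0.362 and 0.339 from limma. KRT7 stood at 33.3 ± 0.0369 (no dox) and 35.6 ± 0.974 (dox) RPKM as mean ± SD of 2 libraries each, and KRT19 was listed at 0 in all libraries. What part the cells or states behind CD8A, KRT8 and KRT18 had in the CCR8 values was not tested.

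Genes with a profile like that of CCR8 were sought among the tested genes with enough reads and enough spread. Among 983 tested genes with a mean of at least 20 reads and a range of at least 1 in log2 CPM, the Pearson correlation of log2 CPM with CCR8 over the 4 libraries was above 0.99 for 10 genes and above 0.95 for 63. No other tested gene in the span of 1 Mb on either side of CCR8 reached that range, so none could appear among the 983. Whether the neighbours share the profile cannot be read from this comparison. With 4 libraries in 2 groups, such values mostly say that the libraries of a group lie together, and they are given as a description. The leading 5 were TTC41P (r = 0.9997, chromosome 12), a pseudogene, SLC2A10 (r = 0.999, chromosome 20), a glucose transporter, GBP3 (r = 0.998, chromosome 1), an interferon-inducible GTPase with close paralogs, SLCO2B1 (r = 0.997, chromosome 11), an organic anion transporter, and CD96 (r = 0.997, chromosome 3), a receptor of T and NK cells. SLC2A10 had 83 and 95 reads under no dox against 122 and 134 under dox, and CD96 had 16 and 17 without dox and 22 and 26 with dox. None of the 5 was called, and their log2 fold changes, 0.85 to 1.18, were below that of CCR8.

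**Figure D5:**
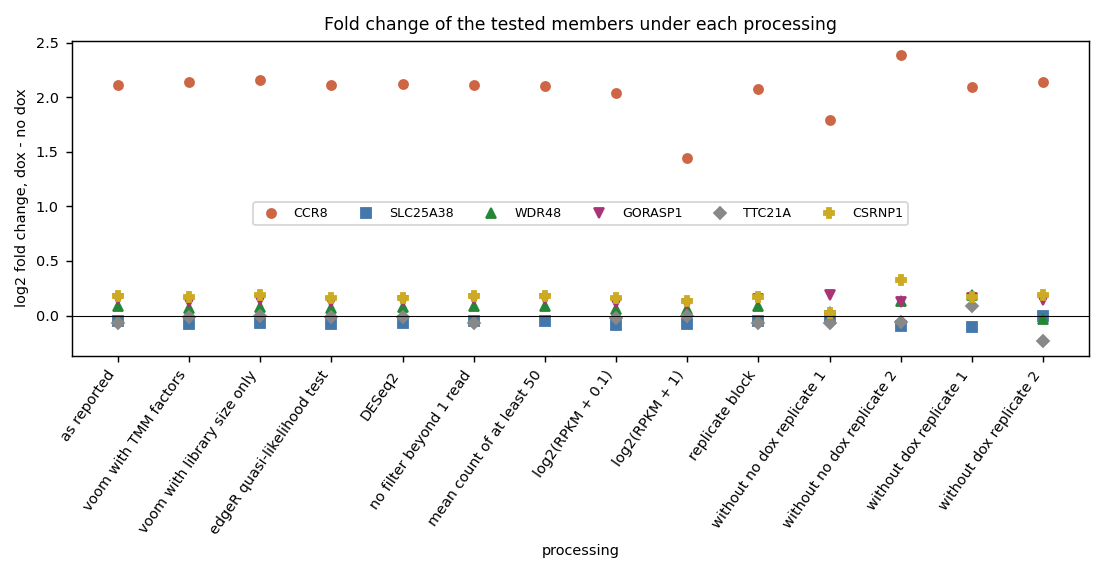
Log2 fold change, dox minus no dox (y axis), of CCR8 and its 5 tested neighbours in the analysis as reported, under 9 other ways of processing and with each of the 4 libraries left out (x axis). CCR8 lay between 1.45 and 2.39 in all of them, and the neighbours lay between -0.24 and 0.33. TTC21A did not pass the filter of a mean count of at least 50 and has no point there.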

How the data were processed

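RNA sequencing (50-base single-end reads) of 4 samples, 2 no dox and 2 dox, grouped by their labels, was analysed. According to the methods of the study, the authors discarded ribosomal reads, mapped the remainder with GSNAP (build GRCh38) and counted per gene over exons. The deposited counts are whole reads per gene, not normalized. The deposited RPKM values carry a further scaling per library by the authors. The library kit and the use of strand for these samples are not given in the sources used here, and the annotation named there is RefSeq, while the deposited identifiers come from Ensembl (57532 of 58302 in GENCODE release 44). Positions are those of GENCODE on GRCh38.

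Genes kept by filterByExpr (16181) were fitted with voom (quantile normalization) and limma 3.58.1 in R 4.3.3, as in the methods of the study, with Benjamini-Hochberg adjustment over all of them. Calls needed both a 2-fold change and an adjusted p no higher than 0.05. CPM, Poisson intervals and floors (3 reads) used the library totals, and cover counting error only. With 2 against 2 an exact permutation test cannot go below p = 0.333. The script was tested on simulated data. Alternatives were voom with TMM or library size alone, edgeR 4.0.16, DESeq2 1.42.0, other filters, log2(RPKM + 0.1) and log2(RPKM + 1) with limma, a replicate block, and each library left out. Exonic 50-base windows were matched exactly to both strands of GRCh38, whereas the mapping of the study allowed up to 2 mismatches in a read. The members and the gene lists were chosen with earlier results of these data known. Named were MIB1, the members, tested genes overlapping the span of 1 Mb on either side of CCR8 and genes overlapping members, list genes that were called, had an unadjusted p under 0.05 or the highest level, and the 5 genes most like CCR8. Beyond that rule, list genes at 0 or near it and some others, among them HNRNPA1P21, CENPPP1 and EEF1A1P24, were named after their values were seen.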

Additional observations from a re-analysis of the deposited data

How the results depend on the processing

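The log2 fold change of CCR8, a gene chosen on these same counts, kept its direction in every setting tried. It was 2.04 to 2.16 under 8 of the 9 alternatives and 1.45 on log2(RPKM + 1), where the pseudocount draws in low values. It was 1.79 to 2.39 with each library left out, the lowest without no dox replicate 1 and the highest without no dox replicate 2. With the replicate block it was 2.08. The labels do not say what the replicate numbers stand for, and the correlation of deviations between samples of the same number was 0.134 over 16181 genes with only 2 pairs. In that paired fit, 78 genes of all those tested were called in place of 6, and 0 of the neighbours. The median of the tested neighbours was 0.06 to 0.12 under the 9 alternatives and -0.0036 to 0.16 with a library left out. The value of 0.12 came from the filter of a mean count of at least 50, which TTC21A did not pass. TTC21A turned to 0.090 without dox replicate 1, within a range of -0.24 to 0.090 over the libraries left out, and WDR48 turned to -0.028 without dox replicate 2, within a range of -0.028 to 0.19. The count of neighbours, other genes of the window and list genes called was 0 in all settings, leaving out a library being added for these counts after the data were seen. That count carries no weight for the 2 RPKM scales, for 28798 genes without a filter and for the 4 fits without a library, since 0 genes of the whole table were called there, CCR8 and MIB1 included. Depth limits the statements on CX3CR1, XIRP1 and the chemokine receptors at or near 0 reads.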
